A study of Homo sapiens with 4 samples.

Results

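The genes described here code for nucleolar factors that make ribosomes. They were taken by symbol from a list of 41 genes, and 40 of them had a transcript cluster of their own among the 25847 genes measured on the array. The exception was PPAN, whose symbol occurs on the array only within the readthrough name PPAN-P2RY11. Hut78, a cell line established from a cutaneous T-cell lymphoma, was measured on whole-transcript arrays, 2 of untreated cells (control) and 2 of cells given ribavirin at 50 µM for 120 h. All 4 arrays carry RNA of this 1 line, grown in RPMI with fetal bovine serum, and how long the control cells were kept is not stated in the labels. Ribavirin is an antiviral guanosine analogue, and the comparison is of treated with untreated cells.

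Ribosomal RNA is transcribed by RNA polymerase I in the nucleolus, where small nucleolar RNPs modify it and a succession of assembly factors folds, cuts and exports the precursors of both ribosomal subunits. Several of these factors are GTPases. Ribavirin is known to inhibit IMP dehydrogenase, the enzyme that commits purine precursors to guanine nucleotides, and lack of GTP is known to disturb polymerase I transcription and the nucleolar residence of some of these GTPases.

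The 4 arrays had gene medians between 4.20 and 4.30 on the log2 scale of the deposited values. The background probe set with the highest mean over the control arrays stood at 5.20, and all 40 nucleolar genes had control means above it, between 6.12 and 15.54. The small number of arrays limits the precision, and no label says that the arrays of a group came from separate cultures, so each p-value reflects only how far these samples spread, and that spread may be technical. Of 10 measured T-cell markers, 7 fell with ribavirin and none rose (median log2 change -0.69). Over all genes 5.88% fell, and over those with a mean above background 11.2%. CD3D, CD3E, CD3G, CD5 and LCK were well above background, and CD2 and CD28 were within its range. CD5 fell most, from 10.27 in control to 7.88 with ribavirin. Control means of the T-cell markers ran from 3.09 to 11.84. Of 15 markers of B, myeloid, epithelial and fibroblast cells, 6 fell, none rose (median -0.17) and 8 had control means within the background range. CD79A, a B-cell marker (11.18 in control, 9.78 with ribavirin), and the epithelial markers KRT8 (8.12 and 6.76) and CDH1 (7.75 and 6.89) were above it and fell. EPCAM, also epithelial and above background, read 7.81 in control and 8.23 with ribavirin, with both ribavirin arrays higher (limma adjusted p = 0.073). The part of these markers in the results below was not tested. As these are bulk samples, fewer cells of a type and less RNA per cell cannot be told apart.

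Ribavirin left most nucleolar genes within 1.5-fold of control and raised a few. Of the 40 genes 7 rose, 2 fell and 31 did not pass (limma over all genes, Benjamini-Hochberg adjusted p under 0.05), and the median log2 change was 0.08. Over all genes 9.34% rose and 5.88% fell. Among the 9794 genes whose mean lay above background, as that of every nucleolar gene did, 22.3% rose and 11.2% fell, with a median of 0.07. The nucleolar shares, 17.5% risen and 5% fallen, were below those of the brighter genes, so the counts are no result about the list.

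The risen genes were NOP58, GNL2, NOB1, NMD3, WDR43, PNO1 and LTV1, and the fallen ones RRP9 and MRTO4. With each array normalised anew by quantiles, 4 rose and 5 fell, and with each array centred on its median 7 rose and none fell, so the balance of rises and falls depends on the scaling. NOP58 and GNL2 passed in every fit with all 4 arrays, and their adjusted p was under 0.01 in each of these except the fit with the array number as a block (0.013 and 0.0102). When control replicate 1 was left out none of the 40 genes passed, and over all genes 22 rose and 4 fell. When control replicate 2 was left out, again none of the 40 passed, and over all genes 22 rose and 5 fell. NOP58 and GNL2 then had adjusted p between 0.0531 and 0.0789 (limma). Without ribavirin replicate 1 only NOP58 and GNL2 of the 40 passed, and without ribavirin replicate 2 RRN3 joined them.

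**Figure D1:**
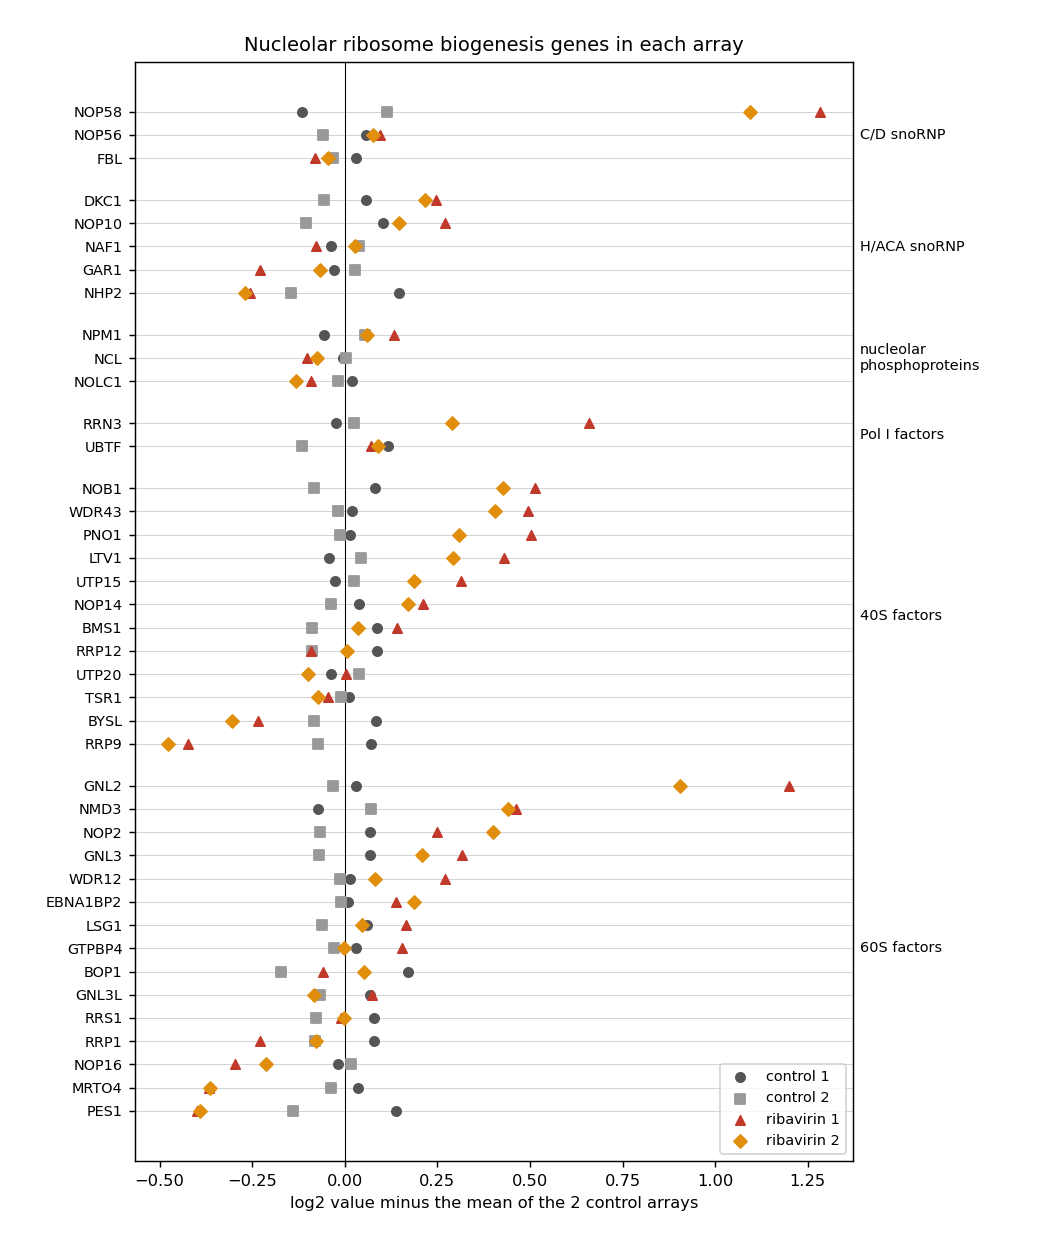
Log2 value of each of the 40 genes in each array, minus the mean of the 2 control arrays, grouped by role (circles and squares, control; triangles and diamonds, ribavirin). NOP58 and GNL2 stand about 1 unit to the right in both ribavirin arrays, while most genes stay within 0.5 of control.

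The core proteins of the box C/D RNPs, which carry the guide RNAs for ribose methylation of rRNA, did not move alike. NOP58 (TC02001188.hg.1), a scaffold protein of these particles, read 10.57 and 10.80 in the control arrays and 11.97 and 11.78 with ribavirin. Both ribavirin arrays were above both controls, by more than the arrays of either group differed. The change was 1.19 (SE 0.11, 2.28-fold, limma adjusted p = 0.00507), with a 95% interval from 0.90 to 1.48. FBL, the methyltransferase of the same particle, read 14.79 and 14.73 in control and 14.68 and 14.71 with ribavirin, a change of -0.06 with an interval from -0.24 to 0.12. NOP56, the partner of NOP58 in the particle, changed by 0.09 (interval -0.11 to 0.28), from a control mean of 15.54. Its second cluster, built on the RefSeq mRNA, had a control mean of 9.21 and changed by 0.03 in a fit of all clusters. The difference between NOP58 and its partners was not tested.

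None of the 5 box H/ACA proteins, which carry out pseudouridylation of rRNA, passed. DKC1, the pseudouridine synthase dyskerin, changed by 0.23 (interval 0.03 to 0.43, limma adjusted p = 0.119), with both ribavirin arrays above both controls. NOP10, another core protein, changed by 0.21 and the assembly factor NAF1 by -0.03. The remaining core proteins GAR1 (-0.15) and NHP2 (-0.26) had ribavirin arrays below both controls.

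None of the 3 abundant nucleolar phosphoproteins passed. Nucleolin, NCL, read 14.69 and 14.70 in control and 14.60 and 14.62 with ribavirin. Its ribavirin arrays lay below both controls, by a margin that did not pass (-0.09, interval -0.26 to 0.09, limma adjusted p = 0.451). Nucleophosmin, NPM1, a histone and assembly chaperone, read 14.17 and 14.28 in control and 14.36 and 14.29 with ribavirin, a change of 0.10 (interval -0.10 to 0.30). NOLC1, which escorts small nucleolar RNPs, changed by -0.11. The intervals of all 3 genes leave out a 1.5-fold change in either direction.

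Of the 2 RNA polymerase I transcription factors, RRN3 gave the larger difference. RRN3, which joins the polymerase to the rDNA promoter and is a target of growth signalling, read 9.74 and 9.79 in control and 10.43 and 10.06 with ribavirin. Both ribavirin arrays were above the controls, but they differed from each other by more than the controls did, and the change of 0.47 (SE 0.13) did not pass (limma adjusted p = 0.0804). It passed without ribavirin replicate 2, at 0.66, and with dim genes left out (limma adjusted p = 0.0402). The 3 annotated RRN3 pseudogenes on the array changed by 0.20 to 0.28, and probes may be shared between these near-identical copies. UBTF, which keeps rDNA open and helps to build the promoter complex, read 11.08 and 10.85 in control and 11.03 and 11.05 with ribavirin, so the groups overlapped (change 0.08, interval -0.17 to 0.33). The second UBTF cluster, built on the RefSeq mRNA, changed by -0.00 in a fit of all clusters.

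Of 12 small subunit factors 4 rose and 1 fell, beside 22.3% and 11.2% of the genes above background. NOB1, the endonuclease that makes the final cut at the end of 18S rRNA, read 14.61 and 14.45 in control and 15.04 and 14.96 with ribavirin. PNO1, the RNA-binding partner of NOB1, read 6.85 and 6.82 in control and 7.34 and 7.14 with ribavirin. LTV1, an assembly factor of the late pre-40S particle that leaves before the last maturation steps, read 10.40 and 10.49 in control and 10.88 and 10.74 with ribavirin. In each of these genes, all of late 40S maturation, both ribavirin arrays lay above both controls, as in 46.4% of the genes above background. NOB1 rose by 0.47 (SE 0.09, limma adjusted p = 0.0271), PNO1 by 0.41 (SE 0.09, adjusted p = 0.0443) and LTV1 by 0.36 (SE 0.08, adjusted p = 0.0485), the last 2 close to the threshold and lost with quantile normalisation (0.0845 and 0.128) and with the array number as a block (0.0538 and 0.0814). BYSL, TSR1 and RRP12, which also act on pre-40S particles, changed by -0.27, -0.06 and -0.04, none past the threshold. BYSL passed with quantile normalisation, at -0.41 (limma adjusted p = 0.0276).

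Factors of the early small subunit processome went both ways. WDR43, a subunit of its UTP-A complex, which binds the nascent pre-rRNA, read 12.82 and 12.79 in control and 13.30 and 13.21 with ribavirin and rose by 0.45 (SE 0.07, limma adjusted p = 0.0186). Its second cluster, built on the RefSeq mRNA, rose by 0.44 (adjusted p = 0.0254 in a fit of all clusters). RRP9, which binds the U3 small nucleolar RNA, read 9.09 and 8.94 in control and 8.59 and 8.54 with ribavirin. RRP9 thus fell by 0.45 (SE 0.08, limma adjusted p = 0.0252), against the direction of WDR43, and missed the threshold with arrays centred on their median (adjusted p = 0.0579). UTP15, in the same UTP-A complex as WDR43, changed by 0.25, and the processome components NOP14, UTP20 and BMS1, a GTPase, by 0.19, -0.05 and 0.09, none past the threshold. BMS1 has 3 annotated pseudogenes on the array, 1 of which, BMS1P15, rose by 0.37, so its value may mix copies.

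Among the 15 large subunit factors measured, 2 rose and 1 fell (13.3% and 6.67%), fewer than the 22.3% and 11.2% of the genes above background. GNL2 (TC01002519.hg.1), a nucleolar GTPase that acts on the maturing pre-60S particle, read 10.32 and 10.26 in control and 11.49 and 11.20 with ribavirin. Both ribavirin arrays lay above both controls, and the change was 1.05 (SE 0.12, 2.07-fold, limma adjusted p = 0.00658), with an interval from 0.76 to 1.35. The intervals of the other large subunit GTPases of the list, GNL3, GNL3L, GTPBP4 and LSG1, all ended below that range. GNL3, nucleostemin, read 9.40 and 9.26 in control and 9.65 and 9.53 with ribavirin, a separation that did not pass (0.26, interval 0.04 to 0.48, adjusted p = 0.117). GNL3L changed by -0.00 (interval -0.24 to 0.23), GTPBP4 by 0.08 (-0.14 to 0.29) and LSG1, the cytoplasmic GTPase that releases NMD3 from the subunit, by 0.11 (-0.11 to 0.32). The difference between GNL2 and these relatives was not tested.

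NMD3, the adaptor that exports the 60S subunit, read 8.39 and 8.53 in control and 8.92 and 8.90 with ribavirin, and rose by 0.45 (SE 0.08, limma adjusted p = 0.0239; 0.0691 with quantile normalisation). MRTO4, which holds the place of the ribosomal stalk protein on the precursor, read 10.57 and 10.50 in control and 10.17 in both ribavirin arrays. MRTO4 fell by 0.36 (SE 0.07, adjusted p = 0.0299; 0.0739 with arrays centred on their median). The PES1, BOP1 and WDR12 proteins form 1 complex needed for 60S maturation, yet their RNAs changed by -0.39, -0.00 and 0.18. PES1 did not pass (adjusted p = 0.0771), but it passed with quantile normalisation (-0.52, adjusted p = 0.0303) and with dim genes left out (adjusted p = 0.0381). Its RefSeq mRNA cluster, kept in its place, also passed, at -0.37 (adjusted p = 0.0421), an alternative chosen after the data were seen. NOP16, an assembly factor, changed by -0.25 (adjusted p = 0.0845) and passed in the same settings (0.0355 and 0.0413). NOP2, an rRNA methyltransferase, changed by 0.33 (adjusted p = 0.0811) and passed with dim genes left out (0.04). Changes were 0.16 for EBNA1BP2, -0.15 for RRP1 and -0.01 for RRS1. The readthrough cluster PPAN-P2RY11 changed by -0.15 (adjusted p = 0.317 in a fit of all clusters).

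**Figure D2:**
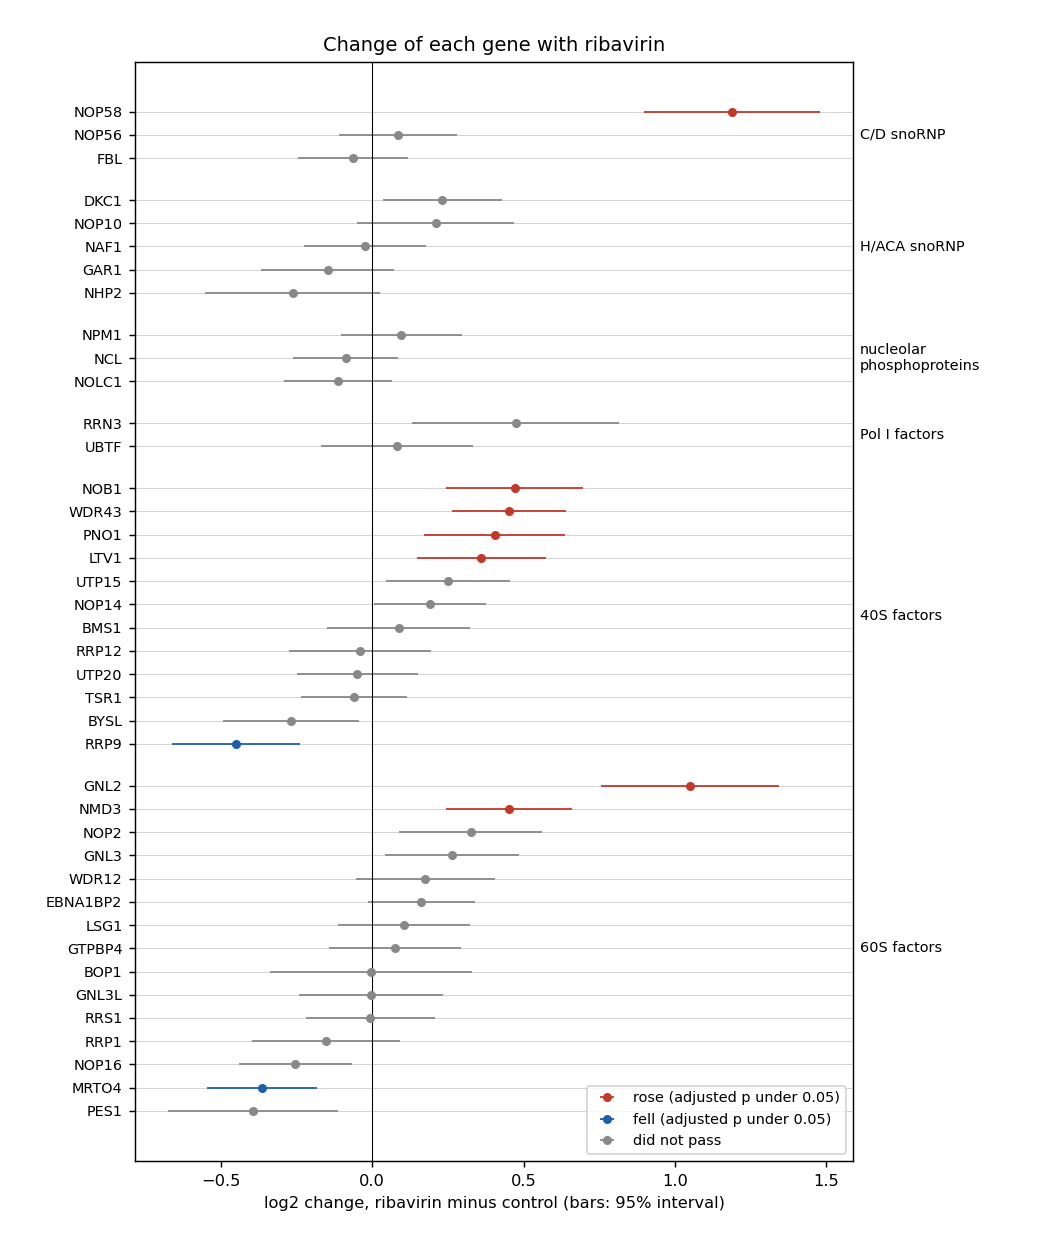
Log2 change of each gene, ribavirin minus control, with its 95% interval from limma. The 7 risen genes run from 0.36 to 1.19, the 2 fallen ones are at -0.45 and -0.36, and the intervals of FBL, NCL, NPM1 and UBTF include 0.

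Changes of at least 1.5-fold were reached by 2 of the 40 genes upward and 0 downward, against 13.5% and 5.6% of the genes above background, and the quartiles of the nucleolar changes were -0.07 and 0.25 against -0.16 and 0.36. The ribavirin arrays were both above the controls for 18 of the 40 genes and both below for 11. Over all genes the shares were 24.1% and 35.8%, and over the genes above background 46.4% and 30.4%. All 7 risen genes read higher in ribavirin replicate 1 than in replicate 2, as did 26 of the 40.

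Other genes of ribosome production, from lists chosen with earlier results of these data known, also went both ways. Of 108 measured, 29 rose, 5 fell and 74 did not pass, with a median of 0.13. That is 26.9% risen and 4.63% fallen, beside 22.3% and 11.2% of the genes above background and 9.34% and 5.88% of all genes. The counts, here and in the lists that follow, were not tested as sets and are no result about the lists. Of 40 other large subunit factors 12 rose and 1 fell, among them RPF1 (1.24), a pre-60S factor, RSL24D1 (1.37), which holds the place of a ribosomal protein on the precursor, and RPF2 (0.91), which helps to load the 5S particle. Of 34 other small subunit factors 9 rose and 1 fell, with KRR1 (0.72), NOL11 (0.77) and DCAF13 (0.63) having the smallest p. Of 13 polymerase I subunits and promoter factors 3 rose and 1 fell, with TAF1B (0.67) and TWISTNB (0.99, from a control mean of 5.29, near background) higher and POLR1D, a subunit shared with polymerase III, lower (-0.41). Of the 108, none passed when either control array was left out.

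**Figure D3:**
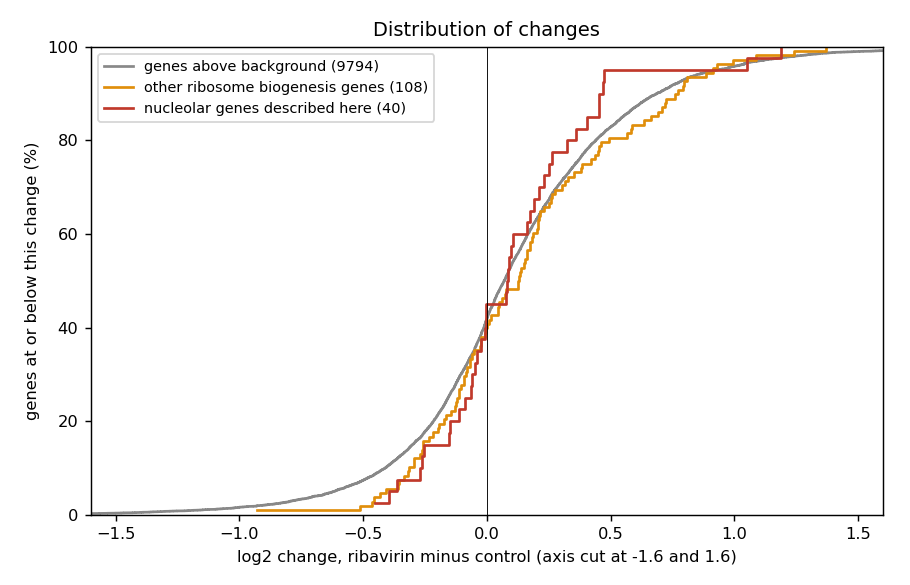
Share of genes at or below each log2 change for the 40 nucleolar genes, 108 other ribosome biogenesis genes and 9794 genes above background (the axis is cut at both ends, beyond which some genes of the last set lie). The medians are 0.08, 0.13 and 0.07, and the quartiles of the nucleolar genes, at -0.07 and 0.25, lie closest together.

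Box C/D and H/ACA guide RNAs are cut from introns of genes such as these, and the array measured some of them separately. By RefSeq positions 28 small nucleolar RNAs lie within the 41 genes, and 14 of them, in 6 hosts, had a row of their own symbol. Probes within such an RNA also match the unspliced host transcript. Of the 14, 1 rose and 2 fell. Over all small nucleolar RNAs whose control mean lay above background, 13 of 166 rose and 18 fell (7.83% and 10.8%). Both that fell are hosted by NOP58, which itself rose. SNORD70 read 10.72 and 10.72 in control and 9.96 and 9.93 with ribavirin, and fell by 0.78 (SE 0.07, limma adjusted p = 0.00432). SNORD11 read 9.30 and 9.53 in control and 8.39 and 8.43 with ribavirin, a fall to 0.499-fold (SE 0.10 on the log2 scale, adjusted p = 0.00554). The mRNA and these intron-borne RNAs of NOP58 thus differed in direction, each with separate groups. The other RNA measured within the gene, SNORD11B, changed by 0.15 with overlapping groups.

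In the other hosts 1 guide RNA rose and none fell. SNORA75, in an intron of NCL, read 11.75 and 11.80 in control and 12.27 and 12.51 with ribavirin and rose by 0.62 (SE 0.10, limma adjusted p = 0.0202), while NCL changed by -0.09 and its other guide RNAs SNORD82 and SNORD20 by -0.25 and -0.64 without passing. Within WDR43, SNORD92 read 8.25 and 7.92 in control and 9.31 and 11.10 with ribavirin, ribavirin arrays far apart, and the change of 2.12 (SE 0.57) did not pass (adjusted p = 0.0703; 0.0347 at 1.22 without ribavirin replicate 2 and 0.0184 at 3.01 without ribavirin replicate 1), and SNORD53 changed by 0.34. In GNL3, SNORD69 changed by -0.24 (adjusted p = 0.0854), with both ribavirin arrays lower, and SNORD19 was within the background range. SNORD91B of TSR1 changed by -0.38, SNORD91A by 0.01 and SNORD105 of PPAN by -0.42, none past the threshold. SNORD105B, also in PPAN, read 18.04 and 18.06 in control and 18.04 in both ribavirin arrays. Control replicate 1 and both ribavirin arrays held the identical value 18.0395, and whether this row could show a change was not tested.

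**Figure D4:**
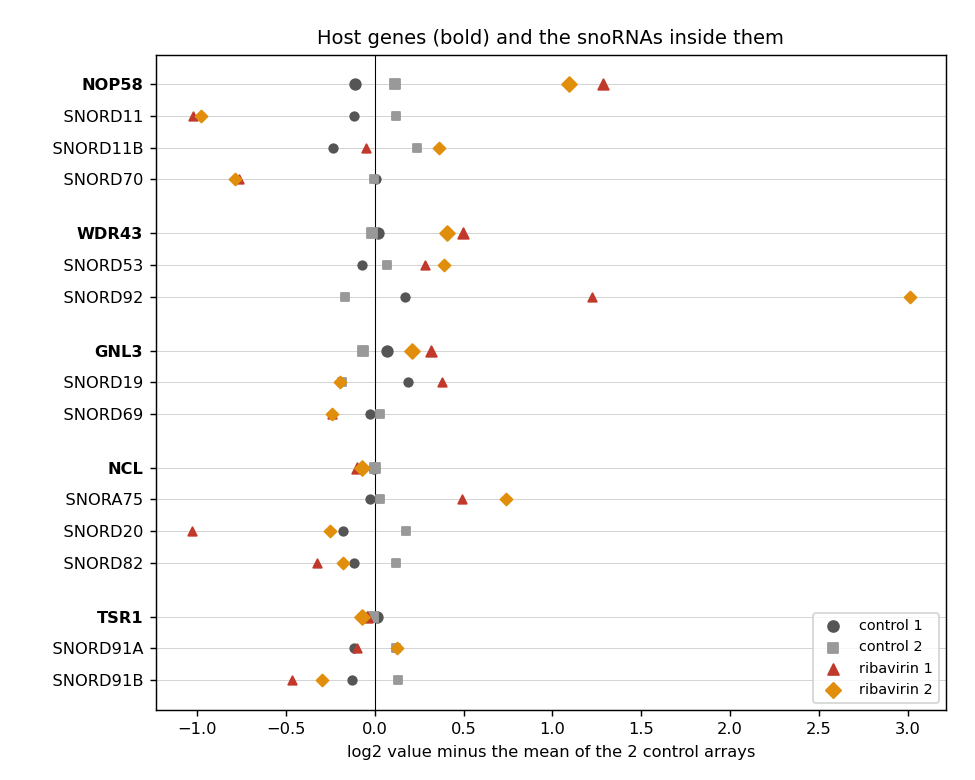
Log2 values in each array, minus the control mean, of 5 host genes (bold) and 12 small nucleolar RNAs inside them. NOP58 lies to the right of 0 in both ribavirin arrays and SNORD11 and SNORD70 to the left, while SNORD92 is high in both ribavirin arrays at distances of 1.22 and 3.01.

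Start-site windows of the genes, 250 bases before and 50 after each RefSeq start (GRCh38.p14), were searched for CACGTG, the E-box that the MYC and MAX proteins and other factors of their class recognise, a palindrome that reads alike on both strands. RefSeq gave windows for 35 of the 41 genes, and 16 of these (45.7%) held the motif in at least 1 window, against 8.78% of all 27305 genes with a window, 927 of 6953 (13.3%) array genes above background and 12.6% of those with like GC content. Among the other ribosome biogenesis genes 20 of 87 (23.0%) held it. The motif occurred in 4 of 6 risen, 2 of 2 fallen and 10 of 26 other measured genes with windows, and not in PPAN. NOP58, which rose most of the list, had no window and was not searched, nor were BOP1, NAF1, NOLC1, RRP12 and RRS1. Among the genes above background, 10.7% of those that rose and 15.9% of those that fell held it. Of 8 genes of the MYC network 2 rose and 1 fell (25% and 12.5%), near the 22.3% and 11.2% of the genes above background. These counts are no result about the network. MYC read 13.72 and 13.73 in control and 14.25 and 14.16 with ribavirin (change 0.48, limma adjusted p = 0.0154). MXD1, a MAX partner known to oppose MYC at this motif, rose by 0.67 (adjusted p = 0.00938), and MNT, another such partner, fell by 0.43 (adjusted p = 0.0346). Both were picked with their values known. The windows of 2 risen and 2 fallen genes that hold the motif, and of NOB1, a risen gene that does not, are shown 5′ to 3′ to let the positions be compared, with the motif in capitals and the rest in lower case.
GNL2, chr1:37595888-37596187, minus strand: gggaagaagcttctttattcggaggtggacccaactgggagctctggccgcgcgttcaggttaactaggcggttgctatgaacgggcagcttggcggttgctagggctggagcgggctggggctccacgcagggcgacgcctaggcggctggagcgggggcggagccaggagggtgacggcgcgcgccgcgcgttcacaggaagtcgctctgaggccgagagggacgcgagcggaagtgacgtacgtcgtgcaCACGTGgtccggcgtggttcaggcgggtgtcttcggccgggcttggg
WDR43, chr2:28894417-28894716, plus strand: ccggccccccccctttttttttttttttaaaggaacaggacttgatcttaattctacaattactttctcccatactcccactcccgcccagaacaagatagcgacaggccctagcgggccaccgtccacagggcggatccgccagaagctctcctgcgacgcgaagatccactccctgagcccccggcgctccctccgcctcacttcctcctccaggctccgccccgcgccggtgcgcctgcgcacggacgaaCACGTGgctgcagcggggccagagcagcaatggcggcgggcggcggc
RRP9, chr3:51941855-51942154, minus strand: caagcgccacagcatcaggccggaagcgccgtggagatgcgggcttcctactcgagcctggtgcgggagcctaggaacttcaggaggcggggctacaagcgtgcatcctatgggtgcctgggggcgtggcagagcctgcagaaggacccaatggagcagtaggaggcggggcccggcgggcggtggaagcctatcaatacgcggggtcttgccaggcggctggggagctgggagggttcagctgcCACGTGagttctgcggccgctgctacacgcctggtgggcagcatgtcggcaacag
MRTO4, chr1:19251555-19251854, plus strand: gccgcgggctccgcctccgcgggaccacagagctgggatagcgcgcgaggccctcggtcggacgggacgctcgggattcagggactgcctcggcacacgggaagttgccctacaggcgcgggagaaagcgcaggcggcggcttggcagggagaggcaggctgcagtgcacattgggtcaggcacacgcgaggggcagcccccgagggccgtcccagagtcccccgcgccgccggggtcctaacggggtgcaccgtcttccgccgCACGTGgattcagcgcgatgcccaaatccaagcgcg
NOB1, chr16:69754877-69755176, minus strand: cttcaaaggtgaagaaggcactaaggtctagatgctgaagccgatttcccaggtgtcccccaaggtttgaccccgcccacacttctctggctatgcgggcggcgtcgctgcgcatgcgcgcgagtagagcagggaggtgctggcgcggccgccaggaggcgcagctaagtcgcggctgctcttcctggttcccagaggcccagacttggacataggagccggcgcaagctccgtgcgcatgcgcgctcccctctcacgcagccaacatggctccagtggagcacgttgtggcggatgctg
Counting the start itself as base 1, the motif began at base 4 in GNL2, base 4 in WDR43 and base 15 in MRTO4, and in RRP9 it began 5 bases before the start and ended on it. A match of letters is a description and shows no binding.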

How the data were processed

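Total RNA of 2 control and 2 ribavirin samples of Hut78 was measured after amplification with a kit named for fixed, embedded tissue (FFPE), per the labels' protocols. The authors deposited log2 values per transcript cluster. The deposited table is named for SST-RMA, and the submitters' processing notes name Affymetrix Expression Console and RMA. No version, background step or filter is stated in the labels. Changes near background may be compressed on this scale, which was not measured. A second deposited table held the same log2 values (largest difference 0).

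Transcript clusters with 1 symbol were kept, 33444 in all, and the one with the highest mean stood for its gene. The 40 genes came from 46 clusters, and WDR43, UBTF, NOP56 and PES1 were thereby represented by clusters not annotated to a RefSeq mRNA. limma 3.58.1 in R 4.3.3 compared ribavirin with control over 25847 genes, without covariates, with 2 residual and 3.19 prior degrees of freedom, two-sided, at a Benjamini-Hochberg adjusted p under 0.05. Intervals are at 95% and not adjusted. Groups came from the titles. The 41 genes, their roles and lists were chosen with earlier results of these data known, and all 41 are named, with every array's value for those that passed and 6 others, and up to 3 genes with the smallest p of each list of ribosome production. On simulated data with 25847 genes, 0 of 50 genes changed 1.25-fold, 3 of 50 changed 1.5-fold, 36 of 50 changed 2-fold and 47 of 50 changed 4-fold were called, and 7 of 25647 unchanged ones. Only 200 genes were changed there, while 3934 passed in the real comparison. A given p-value is therefore adjusted differently, and the simulated shares do not give the sensitivity of the real comparison. Alternatives were variance moderation, normalization, dim genes left out, averaged or RefSeq clusters, the array number as a block, other thresholds and each array left out. Numbers were not treated as pairs: deviations of same-numbered arrays correlated at 0.05 over genes, and no label ties them.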

Additional observations from a re-analysis of the deposited data

How the results depend on the processing

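With 2 arrays a group, the counts above rest on every array. Leaving out 1 array in turn, nucleolar genes that rose ranged from 0 to 3 and those that fell were 0 in each fit, with medians from 0.0205 to 0.1547, and among the 108 other ribosome genes rises ranged from 0 to 21, falls were 0 in each fit and medians ranged from 0.0839 to 0.1314. NOP58 and GNL2 passed without either ribavirin array, and RRN3 joined them without ribavirin replicate 2. With quantile normalization 4 nucleolar genes rose and 5 fell with a median of -0.0315, and 17 other genes fell with a median of 0.0123. Over all genes quantile normalization gave 1939 rises and 1996 falls, median centring 2899 and 1034, and the values as deposited 2413 and 1521. With arrays centred on their median 0 nucleolar genes and 2 other genes fell, and the median of the other genes became 0.193. Leaving out dim genes, and also taking an adjusted p under 0.1, gave 4 nucleolar and 12 other genes that fell. At an adjusted p under 0.01, 2 nucleolar genes and 10 other genes rose and 0 of either fell. The replicate block gave 5 nucleolar genes that rose and 1 that fell (PNO1, LTV1 and MRTO4 lost), and the numbers pair nothing that the labels state. No called gene changed sign under these settings, while 12 of the 40 genes, none of them called, did. The causes were not tested.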

Other observations

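Genes that trim and degrade rRNA precursors, not described above, also went both ways. Of 21 exosome, RNase MRP and nuclease genes 5 rose and 2 fell, with a median of 0.08. The shares, 23.8% and 9.52%, were near the 22.3% and 11.2% of the genes above background, so the counts are no result about the list. DIS3, a catalytic exonuclease of the exosome, rose by 0.76 (SE 0.10, limma adjusted p = 0.0114) and EXOSC8, a ring subunit, by 0.69 (SE 0.09, adjusted p = 0.00987). EXOSC5, another ring subunit, fell by 0.93 on the log2 scale (SE 0.15, adjusted p = 0.0171), and EXOSC7, picked with its value known, fell by 0.51 (SE 0.10, adjusted p = 0.0297). Among the remaining ring subunits EXOSC9 rose by 0.39 (limma adjusted p = 0.0472), while EXOSC4 (-0.07) and EXOSC6 (0.05) did not pass. Subunits of 1 ring thus differed in direction, and the differences between them were not tested.

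Beside 22.3% risen and 11.2% fallen among the genes above background, 1 of 7 guanine nucleotide genes rose and none fell. It was IMPDH2, the main IMP dehydrogenase of dividing cells, an activity that ribavirin is known to inhibit. IMPDH2 read 10.34 in both control arrays and 11.17 and 11.26 with ribavirin, a rise of 0.88 (SE 0.07, limma adjusted p = 0.00407). IMPDH1 changed by -0.03 (adjusted p = 0.845).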
